A study of Mus musculus with 20 samples.

Results

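The interleukin-6 (IL-6) family was followed in colonoids, organoid cultures grown from crypts of the mouse colon, by the normalised expression of 10 genes. These were the ligands Il6, Il11 and Lif, the receptor subunits Il6ra, Il11ra1, Lifr, Osmr and Il6st, the transcription factor Stat3 and its feedback inhibitor Socs3. They are 10 of the 35240 genes in the table, and all 10 are among the 13539 whose mean over all libraries was at least 1. The family was selected on measured values, since Il6 and Il11 differed more between the genotypes at the late than at the early days. These 2 ligands are therefore described here with no test. The other 8 genes were taken for their membership of the pathway, but with earlier results of these data known. They were tested within a fit of all 13539 genes. All cultures came from the distal colon of mice on a C57BL/6 background, either WT or Tnfr2-/-. The Tnfr2-/- mice carried a whole-body disruption of Tnfrsf1b, the gene of TNF receptor 2 (TNFR2). Epithelial crypts had been embedded in Matrigel under Intesticult medium, passaged, filtered through a mesh and collected at 1, 2, 3, 5 or 7 days post-passage (DPP) with no further treatment. There are 20 libraries, numbered as replicate 1 or 2 of each genotype at each day. The replicate number is read here as naming a mouse, so that a mouse would give 1 library at each day, but the sources used here do not state this. Days 1, 2 and 3 are called early (6 libraries of each genotype) and days 5 and 7 late (4 libraries of each genotype).

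IL-6 family cytokines share a signalling chain, gp130, which is encoded by Il6st. A ligand first binds its own receptor subunit, IL-6 binding IL6RA and IL-11 binding IL11RA, while LIF and oncostatin M recruit LIFR or OSMR beside gp130. Janus kinases bound to these chains then phosphorylate STAT3, which enters the nucleus and induces Socs3, whose product in turn blocks gp130 signalling. In the colon, IL-6 and IL-11 are known for supporting epithelial survival and repair after injury, and IL-11 and LIF are often made by stromal fibroblasts.

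Values are size-factor-normalised TPM (a length-corrected transcript abundance) summed per gene, called normalised expression below. Differences are on the log2(value + 1) scale and understate the change of genes at low values. Library sums lay between 900655 and 1111080, and read depth for single libraries is unknown, so no counting interval is given. Tnfrsf1b itself, the check of the labels, was at 15.3 ± 3.09 in WT and 5.80 ± 2.84 in Tnfr2-/- libraries (SD, n = 10 each) and was lower in Tnfr2-/- over all days by limma (log2 difference -1.35, SE 0.126, adjusted p 3.12e-05). Within Tnfr2-/- it rose from 3.85 ± 1.02 early (SD, n = 6) to 8.74 ± 1.82 late (SD, n = 4, adjusted p 0.00191). The genotype difference was -0.79 at the late days (SE 0.198, adjusted p 0.0323) and -1.72 at the early days (SE 0.162, adjusted p 1.16e-04). The highest Tnfr2-/- library, at 11.4, lay above the lowest WT library, at 11.1. Epithelial markers summed to between 11990 and 20190 in every library. The 14 fibroblast markers were all measured as well and summed to between 1512 and 10250. In bulk RNA, a change in the number of cells of a type and a change in RNA per cell cannot be told apart.

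The stretches just before the start sites of the 3 ligand genes and of Socs3 are shown first, to set the 3 ligands beside the feedback gene of their pathway. They are the 250 bases before the RefSeq start site on GRCm38.p6, 5′ to 3′ on the strand of the gene. Capitals mark matches to AP-1 (TGANTCA), C/EBP (TTNCNNAA), STAT (TTCNNNGAA) and NF-kB motifs, searched on both strands, and no marked matches overlap.
Il6, chr5:30012864-30013113, plus strand: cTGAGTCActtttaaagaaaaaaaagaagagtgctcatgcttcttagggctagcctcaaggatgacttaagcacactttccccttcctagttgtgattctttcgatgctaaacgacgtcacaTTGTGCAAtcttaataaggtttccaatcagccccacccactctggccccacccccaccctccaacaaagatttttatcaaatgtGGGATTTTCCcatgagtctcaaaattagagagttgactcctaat
Il11, chr7:4778142-4778391, minus strand: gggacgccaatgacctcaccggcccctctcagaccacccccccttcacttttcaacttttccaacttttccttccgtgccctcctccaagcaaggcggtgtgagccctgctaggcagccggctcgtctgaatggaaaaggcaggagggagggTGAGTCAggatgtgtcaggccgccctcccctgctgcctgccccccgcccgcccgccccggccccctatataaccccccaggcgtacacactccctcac
Lif, chr11:4257318-4257567, plus strand: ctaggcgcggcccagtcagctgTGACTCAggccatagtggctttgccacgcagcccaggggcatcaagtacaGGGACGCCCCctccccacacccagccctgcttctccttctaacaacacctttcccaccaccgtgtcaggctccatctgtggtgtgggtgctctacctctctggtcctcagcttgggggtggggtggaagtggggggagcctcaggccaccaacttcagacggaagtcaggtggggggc
Socs3, chr11:117969367-117969616, minus strand: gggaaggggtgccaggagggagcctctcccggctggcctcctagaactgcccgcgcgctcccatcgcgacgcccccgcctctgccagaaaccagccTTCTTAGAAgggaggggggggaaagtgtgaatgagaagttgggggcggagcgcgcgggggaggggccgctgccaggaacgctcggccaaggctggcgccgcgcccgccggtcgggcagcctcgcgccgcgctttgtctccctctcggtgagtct
With the start site as position 0, the Il6 stretch held an AP-1 match at -249 to -243, a C/EBP match at -128 to -121 and an NF-kB match at -44 to -35. The Il11 stretch, before the start of Il11-201, held an AP-1 match at -98 to -92. The Lif stretch held AP-1 at -228 to -222 and NF-kB at -178 to -169. The Socs3 stretch held a STAT match at -154 to -146. RefSeq promoters were found for all 10 genes, as 13 windows of 300 bases. Across these windows AP-1 letters occurred for 4 of 10 genes (the 3 ligands and Osmr), NF-kB for 2 (Il6 and Lif), STAT for 1 and C/EBP for 3 (Il6, Il6ra and Stat3). Of all 32851 promoters in the table, 7.81% held the AP-1 letters, 8.46% the NF-kB, 8.30% the STAT and 40.7% the C/EBP letters. Neither the TATA letters TATAAA (13.6% of all promoters) nor the CRE letters TGACGTCA (1.79%) occurred for any of the 10 genes. Such matches describe the letters only.

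All 3 ligands peaked at 5 DPP in Tnfr2-/- cultures, a day at which Il6 was listed at 0 and Il11 was at its lowest in both WT cultures. Il6 (chromosome 5, 30013114 to 30019981, plus strand, GRCm38) encodes the founding cytokine of the family. In order of day its normalised expression was 2.96, 0.991, 0, 0 and 3.95 in WT mouse 1. WT mouse 2 had 1.36, 1.37, 0, 0 and 0. Tnfr2-/- mouse 1 had 2.65, 4.01, 1.19, 43.1 and 30.4, and Tnfr2-/- mouse 2 had 5.28, 4.36, 3.81, 44.5 and 24.4. Il6 was thus listed at 0 in 5 of 10 WT libraries and in none of the 10 Tnfr2-/- libraries. All 4 late Tnfr2-/- libraries lay above all other 16 libraries. At 7 DPP the mean of Tnfr2-/- was 13.9-fold that of WT, a fold that rests on WT mouse 1 alone, since WT mouse 2 was listed at 0. At 5 DPP no fold is given because WT was listed at 0.

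Il11 (chromosome 7, 4772373 to 4782859, minus strand) was the most abundant of the 10 genes on average in each genotype, early and late, on this length-corrected scale, but in late WT this rests on 1 library. Without WT mouse 1 at 7 DPP its late WT mean was 16.8, against 122.0 with it, while Stat3 was at 90.7 in the same 3 libraries. In early Tnfr2-/- libraries the mean of Il11 was 64.7, beside 61.1 for Stat3, but the median of Il11 was lower (53.4 against 66.9). WT mouse 1 had 174.9, 60.7, 21.6, 6.24 and 437.6, and WT mouse 2 had 260.2, 95.3, 32.3, 6.96 and 37.1. The values of Tnfr2-/- mouse 1 were 115.3, 40.95, 46.6, 453.8 and 238.6. Those of Tnfr2-/- mouse 2 were 87.5, 37.9, 60.1, 433.0 and 342.8. Both WT cultures lost Il11 step by step until 5 DPP, while both Tnfr2-/- cultures reached their highest value at that day. The Tnfr2-/- mean was 0.466 of the WT mean at 1 DPP, 67.2-fold the WT mean at 5 DPP and 1.23-fold at 7 DPP. At 7 DPP the genotypes overlapped, because WT mouse 1 stood at 437.6, above both Tnfr2-/- libraries. The transcript Il11-201 held 90.9% of the sum of the gene.

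Lif (chromosome 11, 4257557 to 4272514, plus strand) encodes leukaemia inhibitory factor, a cytokine that signals through LIFR and gp130. It was 46.5, 27.6, 34.5, 36.9 and 41.1 in WT mouse 1 and 41.4, 31.0, 39.5, 39.2 and 39.1 in WT mouse 2. Tnfr2-/- mouse 1 had 49.2, 46.5, 39.0, 141.0 and 72.6, and Tnfr2-/- mouse 2 had 48.9, 33.0, 45.6, 134.7 and 79.8. WT cultures stayed within a narrow range, and the 4 late Tnfr2-/- libraries lay above every other library. At the late days Lif was 107.0 ± 35.8 in Tnfr2-/- and 39.1 ± 1.75 in WT (SD, n = 4 each), a log2 difference of 1.37 (SE 0.117, limma adjusted p 3.11e-05). Late against early, it rose within Tnfr2-/- by 1.22 (SE 0.107, adjusted p 4.59e-05) and differed by 0.11 in WT (SE 0.107, adjusted p 0.520).

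**Figure D1:**
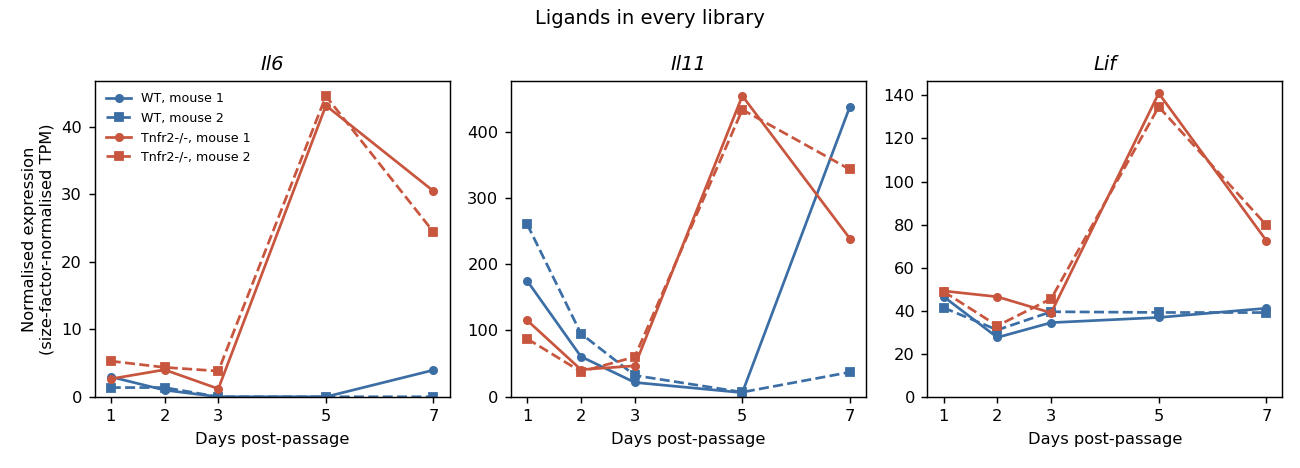
Normalised expression of Il6, Il11 and Lif (vertical axes, size-factor-normalised TPM) against days post-passage, with 1 line per mouse. Both Tnfr2-/- mice peak at 5 DPP for all 3 ligands, at 43.1 and 44.5 for Il6, and WT mouse 1 at 7 DPP is the only WT library above 400 for Il11, at 437.6.

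The late rise of Il6 was spread over 3 transcripts. Il6-201 averaged 15.0, Il6-204 11.8 and Il6-202 8.04 in late Tnfr2-/- libraries, against 0.912, 0 and 0.0767 in late WT libraries. Their shares rest on how the quantification divided reads among overlapping transcripts. For Lif, the coding transcripts Lif-201 and Lif-202 averaged 60.0 and 34.3 in late Tnfr2-/- against 20.5 and 13.1 in late WT libraries. The short non-coding Lif-203 was at 12.8 against 5.50.

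Other ligands of the family were few in these cultures. Of 8 further ligand genes, Osm and Il31 were listed at 0 in all 20 libraries, and Il27 and Ebi3 were each listed at 0 in 17. Cntf, Clcf1 and Ctf1 passed the filter, with means of 1.68, 14.2 and 7.00. Clcf1, which encodes a cytokine that acts through the CNTF receptor, was higher in Tnfr2-/- at the early days (18.6 ± 5.05 against 11.0 ± 2.70, SD, n = 6 each, log2 difference 0.69, limma adjusted p 0.0411). The early call was lost with an estimated correlation between libraries of a mouse (adjusted p 0.0806), after rescaling (0.0682) and with no filter (0.0569). Over all days its difference was 0.57 (SE 0.116, adjusted p 0.0104). None of these genes was called at the late days.

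The receptor subunits split into Osmr, which was higher in late Tnfr2-/- cultures, and the rest, for which no genotype difference was called. Osmr (chromosome 15, 6813577 to 6874969, minus strand) encodes the oncostatin M receptor chain, although its ligand gene Osm was listed at 0 throughout. In order of day it was 10.9, 10.4, 6.42, 4.88 and 5.97 in WT mouse 1 and 8.71, 9.71, 9.71, 10.1 and 16.1 in WT mouse 2. Tnfr2-/- mouse 1 had 6.72, 7.13, 9.38, 14.4 and 24.9, and Tnfr2-/- mouse 2 had 9.50, 10.7, 13.7, 18.5 and 28.8. Osmr increased at each later day in both Tnfr2-/- mice, while WT mouse 1 ended below its own start and WT mouse 2 above it. The late groups overlapped, since WT mouse 2 at 7 DPP exceeded Tnfr2-/- mouse 1 at 5 DPP. The late log2 difference was 1.23 (SE 0.287, limma adjusted p 0.0236) and the late rise within Tnfr2-/- was 1.10 (SE 0.262, adjusted p 0.0101). Over all days its difference was not called (0.50, SE 0.181, adjusted p 0.119), but passed without WT mouse 2 at 7 DPP (0.63, adjusted p 0.0316). The late genotype call was lost when any of 6 single libraries was left out. Without WT mouse 1 at 5 or 7 DPP the adjusted p was 0.113 or 0.0674, without Tnfr2-/- mouse 1 at 5 or 7 DPP 0.0527 or 0.0616, and without Tnfr2-/- mouse 2 at 5 or 7 DPP 0.0882 or 0.0831.

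Il6ra (chromosome 3, 89864059 to 89913196, minus strand), the IL-6 binding chain, fell with time in WT. It was 7.79, 6.98, 5.45, 3.88 and 2.08 in WT mouse 1 and 9.30, 6.69, 7.13, 5.00 and 4.52 in WT mouse 2. Tnfr2-/- mouse 1 had 5.71, 5.15, 4.94, 3.59 and 4.10, and mouse 2 had 6.12, 4.54, 5.40, 3.43 and 5.33. All late WT libraries lay below all early WT libraries (log2 difference -0.78, SE 0.182, limma adjusted p 0.00945). Within Tnfr2-/- the difference was -0.31 (SE 0.182, adjusted p 0.260). At 1, 2, 3 and 5 DPP Il6ra was lower in each Tnfr2-/- library than in each WT library of the day, with daily log2 differences of -0.46 to -0.23 at the early days. The early genotype difference was not called (-0.37, SE 0.163, limma adjusted p 0.353).

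Il6st (chromosome 13, 112464070 to 112510086, plus strand), the shared gp130 chain, was among the more abundant members, from 31.3 to 63.6 in WT and from 25.2 to 67.2 in Tnfr2-/- libraries. No contrast of Il6st was called, and its late genotype difference was -0.20 (SE 0.245, limma adjusted p 0.681). A short transcript carried much of its variation. Il6st-205, of 322 bases, averaged 5.41 in WT early and 22.8 in WT late libraries, whereas the full-length Il6st-201 was at 20.7 and 18.6. The late genotype difference of Il6st minus its early one was -0.21 with all transcripts and 0.18 with transcripts of at least 500 bases only.

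Il11ra1 (chromosome 4, 41699989 to 41769474, plus strand), the IL-11 binding chain, ranged from 11.5 to 33.3 in WT and from 19.0 to 44.3 in Tnfr2-/- libraries. The WT mice parted at the late days, at 13.8 and 11.5 in mouse 1 against 33.3 and 31.5 in mouse 2. Its late genotype difference was 0.46 (SE 0.323, limma adjusted p 0.427), and without WT mouse 2 it was 1.11 (adjusted p 0.0414). Transcripts of Gm13305 and Il11ra2 matched Il11ra1 at 99.0% identity over 1654 and 1299 bases, so its values are uncertain, although these copies were assigned a mean of only 0.177 and 0.115. Lifr (chromosome 15, 7090614 to 7197489, plus strand), the LIF receptor chain, was low, from 2.13 to 11.7 in WT and from 2.08 to 5.64 in Tnfr2-/- libraries. Its highest value was that of WT mouse 2 at 3 DPP, and its late genotype difference was -0.30 (SE 0.387, adjusted p 0.692). Of 4 further receptor genes, Cntfr alone passed the filter, at a mean of 1.72, and was not called in any comparison. With the mouse as a block it was lower late than early in both genotypes (log2 difference -0.97 in WT and -0.96 in Tnfr2-/-, limma adjusted p 0.0359 and 0.0377).

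Stat3 (chromosome 11, 100885098 to 100939540, minus strand), which encodes the transcription factor activated downstream of gp130, rose with time in both genotypes. It was 59.6, 61.1, 76.7, 94.9 and 132.1 in WT mouse 1 and 50.7, 68.8, 83.6, 74.9 and 102.2 in WT mouse 2. Tnfr2-/- mouse 1 had 39.6, 70.7, 79.1, 104.0 and 74.9, and mouse 2 had 64.1, 43.1, 69.7, 127.4 and 89.0. Both Tnfr2-/- mice peaked at 5 DPP, above both WT libraries of that day, and both lay below both WT libraries at 7 DPP. The late rise was 0.58 in WT (SE 0.165, limma adjusted p 0.0249) and 0.70 in Tnfr2-/- (SE 0.165, adjusted p 0.00914). The WT rise was not called without WT mouse 1 at 2, 5 or 7 DPP (adjusted p 0.0533, 0.104 and 0.112) or without WT mouse 2 at 1 DPP (0.0571). The genotype difference of Stat3 at the late days was -0.03 (SE 0.181, adjusted p 0.947). These are transcript levels, and phosphorylation of STAT3 was not measured.

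Socs3 (chromosome 11, 117966079 to 117970047, minus strand), the feedback inhibitor induced by STAT3, was higher in Tnfr2-/- cultures. It was 23.4, 16.6, 11.6, 13.4 and 25.4 in WT mouse 1 and 21.6, 29.2, 15.7, 22.9 and 25.0 in WT mouse 2. Tnfr2-/- mouse 1 had 17.8, 42.6, 33.8, 43.0 and 55.2, and Tnfr2-/- mouse 2 had 50.2, 30.9, 30.6, 72.3 and 64.9. From 2 DPP on, both Tnfr2-/- libraries of a day lay above both WT libraries (at 2 DPP not with transcripts of at least 500 bases alone), and all 4 late Tnfr2-/- libraries lay above every WT library. The log2 difference was 1.02 over all days (SE 0.185, limma adjusted p 0.00512) and 1.41 at the late days (SE 0.292, adjusted p 0.0140), against 0.76 at the early days (SE 0.239, adjusted p 0.172). The late call was lost without WT mouse 1 at 5 DPP (adjusted p 0.0727) and without Tnfr2-/- mouse 2 at 5 DPP (0.0642) or 7 DPP (0.0574). The early difference passed without Tnfr2-/- mouse 1 at 1 DPP (1.00, adjusted p 0.0420). The rise within Tnfr2-/- from early to late, 0.80 (SE 0.267, adjusted p 0.0491), was barely past the threshold. It was lost in 14 of 20 fits that left out 1 library, holding only without either WT library of 2 or 5 DPP, Tnfr2-/- mouse 1 at 5 DPP or Tnfr2-/- mouse 2 at 1 DPP (adjusted p up to 0.201 in the others). It was also lost with a pseudocount of 0.1 (0.0527), with no filter (0.0921), after rescaling (0.0769) and without the mean-variance trend (0.0620).

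The Socs3 difference was carried by more than 1 transcript. The coding Socs3-201 averaged 14.7 and 15.8 in WT early and late libraries and 19.1 and 38.0 in Tnfr2-/- early and late libraries. Socs3-203, a non-coding transcript of 246 bases, was at 1.18 and 0.972 in WT and at 11.7 and 10.1 in Tnfr2-/-. The early difference of the summed gene therefore lay largely in the short transcript, and the late one largely in the coding transcript. With transcripts of at least 500 bases alone, which leaves Socs3-201, the late Tnfr2-/- libraries lay between 30.7 and 51.8 and the late WT libraries between 6.93 and 23.2.

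**Figure D2:**
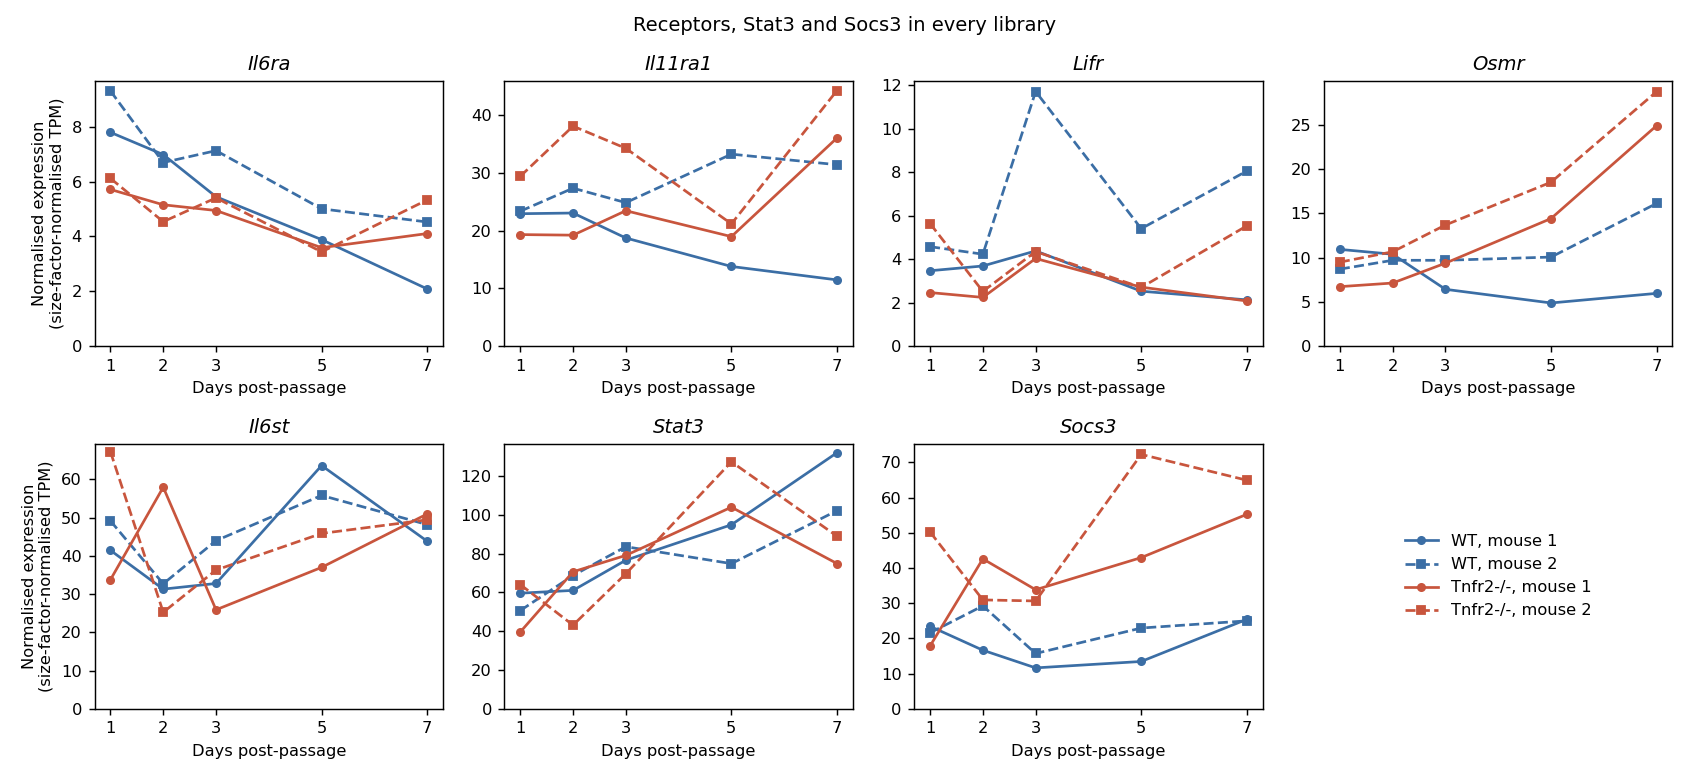
Normalised expression of the 5 receptor genes, Stat3 and Socs3 (vertical axes, size-factor-normalised TPM) against days post-passage, with 1 line per mouse. Osmr climbs in both Tnfr2-/- mice, to 24.9 and 28.8 at 7 DPP, Il6ra declines in both WT mice, and Socs3 separates the genotypes from 2 DPP on.

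**Figure D3:**
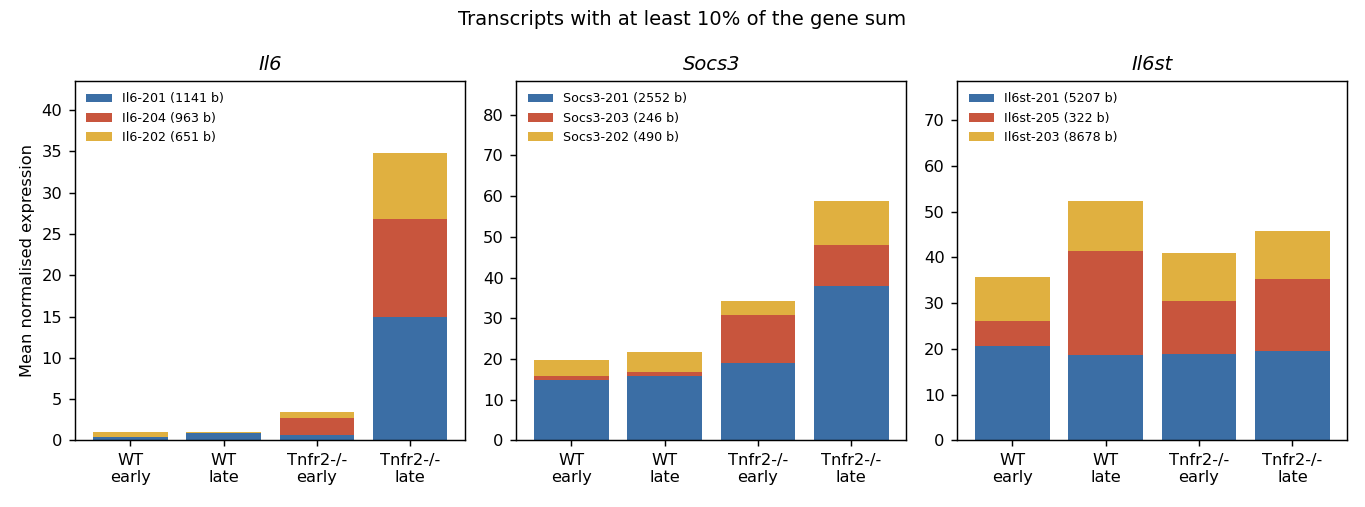
Mean normalised expression (vertical axes) of transcripts holding at least 10% of the sum of Il6, Socs3 and Il6st, stacked for early and late libraries of each genotype, with transcript lengths in bases (b) in the keys. Il6-201, Il6-204 and Il6-202 all appear in late Tnfr2-/- libraries, Socs3-201 reaches 38.0 there, and Il6st-205 is highest in late WT libraries at 22.8.

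Among the 8 tested members, 3 were called at the late days, all higher in Tnfr2-/- (Lif, Osmr and Socs3), where 6.45% of all 13539 genes were called, 3.80% higher and 2.64% lower. Over all days 2 of 8 were called, both higher (Lif and Socs3), beside 7.23% of all genes called, 4.37% higher and 2.86% lower. At the early days 0 of 8 were called by limma, beside 1.20% of all genes called, 0.768% higher and 0.428% lower. An unadjusted p under 0.05 was reached there by 3 of 8 (Lif, Il6ra and Socs3), beside 1746 of all 13539 genes. Within Tnfr2-/- cultures 4 of 8 rose late (Lif, Osmr, Stat3 and Socs3) and none fell, beside 20.3% of all genes called, 10.4% higher and 9.93% lower. In WT cultures 1 rose (Stat3) and 1 fell (Il6ra), which is 2 of 8 beside 20.1% of all genes called, 11.6% higher and 8.52% lower. The median late genotype difference of the 8 members was 0.28, against -0.05 over all genes. The members were chosen with earlier results of these data known, so these counts only describe the set. Rescaling every library to the same sum took the Tnfr2-/- count from 4 to 3, by Socs3, and left the other 4 member counts as they were. It turned the split over all genes at the late days from 515 higher and 358 lower to 417 higher and 546 lower. Over all days the split went from 592 and 387 to 442 and 708, at the early days from 104 and 58 to 79 and 75, in WT from 1571 and 1153 to 1275 and 1479, and in Tnfr2-/- from 1411 and 1344 to 1111 and 1710.

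These calls treat the libraries of a mouse as separate samples. On 1 value per mouse, 2 mice against 2, none of the 8 members was called in any comparison by limma. The adjusted p of Lif at the late days was then 0.127, in a comparison where 0 of all 13539 genes were called and 1859 passed 0.05 unadjusted.

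The genotype difference of each member at the late days minus that at the early days is given as a description, since it led to the choice of the family. It was 3.38 for Il6 (SE 0.538), 3.86 for Il11 (SE 0.665), 1.12 for Lif (SE 0.151) and 1.22 for Osmr (SE 0.370). Socs3 followed at 0.65 (SE 0.377) and Il6ra at 0.47 (SE 0.258). For Il11ra1, Lifr, Stat3 and Il6st the values lay between -0.21 and 0.29, each smaller than its SE. The Il6 values depend on the pseudocount, because WT libraries listed at 0 enter the fit.

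**Figure D4:**
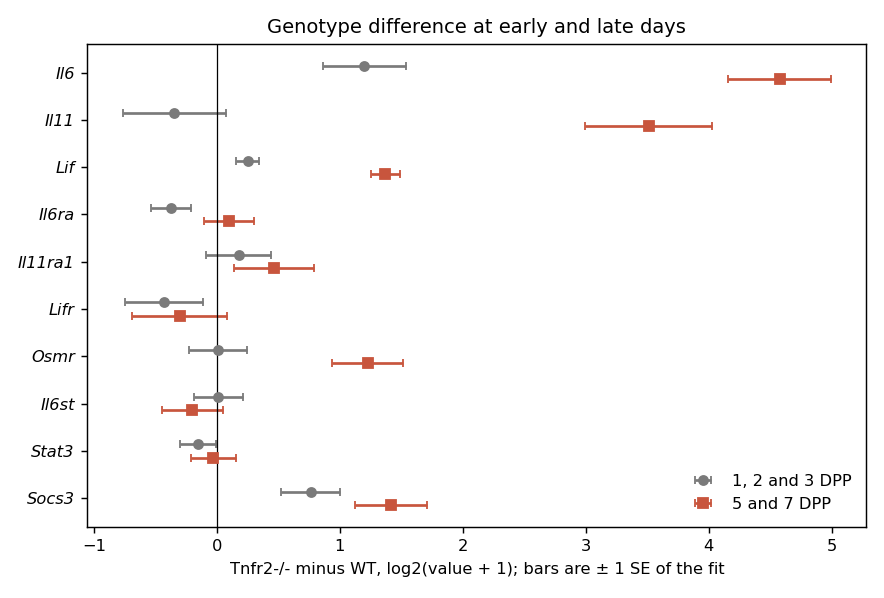
Differences of Tnfr2-/- minus WT on the log2(value + 1) scale (horizontal axis) for the 10 members at early days (grey circles) and late days (red squares), with bars of 1 SE of the fit. Il6, Il11, Lif and Osmr sit well to the right of their early values at the late days, at 4.58, 3.51, 1.37 and 1.23.

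The members are ordered here by level, on the length-corrected scale, in early WT and late Tnfr2-/- libraries. In WT early libraries Il11 (107.5 ± 93.0) and Stat3 (66.7 ± 12.1) stood first (SD, n = 6), with overlapping ranges, followed by Il6st (38.6 ± 7.35) and Lif (36.7 ± 7.03), whose ranges also overlapped. Il11ra1 (23.4 ± 2.83) and Socs3 (19.7 ± 6.31) came next and overlapped. Osmr (9.31 ± 1.60), Il6ra (7.22 ± 1.28) and Lifr (5.34 ± 3.15) followed, each overlapping its neighbour, and Il6 was last at 1.11 ± 1.10. In Tnfr2-/- late libraries Il11 (367.1 ± 98.3, SD, n = 4) lay above all other members with no overlap. Lif (107.0 ± 35.8) and Stat3 (98.9 ± 22.5) overlapped below it. Il6 was at the sixth place, at 35.6 ± 9.80, and Il6ra (4.11 ± 0.860) and Lifr (3.26 ± 1.55) were lowest. Over the late days 2 of the 8 tested members, Lif and Socs3, had every Tnfr2-/- library above every WT library, as had 5.35% of all genes, and none had every one below, as had 6.07%. At the early days 0 of the 8 were apart in either direction, as were 0.576% of all genes above and 0.702% below.

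Day by day, with 2 libraries against 2, such separation was common among all genes, and the counts of the 8 tested members stand beside its share. At 1 DPP Lif was apart above WT (1 of 8, beside 19.3% of all genes) and Il6ra below (1 of 8, beside 17.9%). At 2 DPP Lif and Socs3 were above (2 of 8, beside 17.6%) and Il6ra and Lifr below (2 of 8, beside 19.0%). At 3 DPP Socs3 was above (1 of 8, beside 17.1%) and Il6ra and Lifr below (2 of 8, beside 20.2%). Lif, Il6ra, Lifr and Socs3 were the members apart at these early days. At 5 DPP Lif, Osmr, Stat3 and Socs3 were above (4 of 8, beside 19.9%) and Il6st and Il6ra below (2 of 8, beside 24.8%). At 7 DPP Lif, Il6st, Il11ra1, Osmr and Socs3 were above (5 of 8, beside 20.5%) and Stat3 below (1 of 8, beside 23.3%). With transcripts of at least 500 bases alone, Lif at 1 DPP and Socs3 at 2 DPP overlapped between the genotypes, Lif at 3 DPP was apart above WT, and Il6st and Stat3 at 2 DPP were apart below. In that setting Il6st also overlapped at 5 DPP (23.4 and 38.3 in WT, 24.6 and 26.8 in Tnfr2-/-) and at 7 DPP (21.8 and 36.7 in WT, 35.1 and 33.3 in Tnfr2-/-). Il11 lay below WT at 1 and 2 DPP and above it at 3 and 5 DPP in every library.

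Genes downstream of gp130 were examined as lists, which were chosen with earlier results of these data known, so their counts only describe the lists. Of 22 genes listed as STAT3 targets, 19 were tested, and 7 were higher in late Tnfr2-/- cultures and none lower, with a median of 0.50 against -0.05 over all genes, of which 3.80% were called higher and 2.64% lower. Pim1, which encodes a survival kinase, was 18.7 ± 0.767 in Tnfr2-/- and 7.33 ± 4.93 in WT (SD, n = 4 each, log2 difference 1.40, SE 0.234, limma adjusted p 0.00429). Cebpd and Cebpb, transcription factors of the acute-phase response, were 15.2 ± 2.97 against 7.07 ± 0.848 and 33.1 ± 13.4 against 12.9 ± 2.24 (adjusted p 0.00629 and 0.00862). Timp1, an inhibitor of metalloproteinases, was 235.8 ± 28.2 against 91.0 ± 41.6 (log2 difference 1.48, SE 0.297, adjusted p 0.0119). The other 3 were Junb, Hif1a and Muc1. The count was 6 after rescaling and 7 without WT mouse 1 at 7 DPP. Muc1 was lost with no filter (limma adjusted p 0.0622) and with transcripts of at least 500 bases alone (0.101), where Il4ra was gained (0.0360). Over all days Pim1, Junb and Hif1a were called, all higher (3 of 19, beside 4.37% of all genes), and 5 were called without WT mouse 1 at 7 DPP. With transcripts of at least 500 bases alone, Cebpb, Cebpd, Timp1 and Lcn2 were gained over all days (limma adjusted p 0.0492, 0.0307, 0.0446 and 0.0480). At the early days 0 of 19 were called by limma, and 1, Saa3, without that library (adjusted p 0.0481).

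The list was also compared between the late and early days of each genotype. In WT, 3 targets rose from early to late and 4 fell, the latter being Cebpd (log2 difference -0.85, SE 0.162, limma adjusted p 0.00329), Cebpb (-0.87), Ccnd1 (-0.58) and Pim3 (-0.81). Of all genes, 11.6% rose and 8.52% fell. Without WT mouse 1 at 7 DPP, 0 targets rose and 3 fell, Ccnd1 being lost (adjusted p 0.0611). In Tnfr2-/- cultures 9 rose and 2 fell, Ccnd1 (-1.12, SE 0.142, adjusted p 2.24e-04), a cyclin of the G1 phase, and Pim3 (-0.74), beside 10.4% of all genes higher and 9.93% lower. The number that rose was 5 after rescaling and 3 with no filter on low values. Muc1, a membrane mucin, rose there by 1.79 (SE 0.320, adjusted p 0.00196). Several of these genes are also induced by TNF or growth factors, so the list is not specific to STAT3. Reg3b and Reg3g were listed at 0 in all libraries.

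Of 10 signalling genes, Jak2, a kinase bound to gp130, was called at the late days, higher in Tnfr2-/- (40.5 ± 7.20 against 26.6 ± 7.98, SD, n = 4 each, log2 difference 0.61, limma adjusted p 0.0292), and the other 9 were not called, beside 3.80% of all genes called higher and 2.64% lower. Over all days Jak2 differed by 0.34 (adjusted p 0.0466), and 0 of 10 were called there after rescaling, with no filter or with an estimated correlation (adjusted p of Jak2 0.0813, 0.0576 and 0.130). In WT Gab1 (0.86, limma adjusted p 0.00369) and Jak2 (0.64, adjusted p 0.00623) rose with time, as did Tyk2 and Jak1, and none of the 10 fell, beside 11.6% of all genes that rose and 8.52% that fell. Jak1 was lost there after rescaling (adjusted p 0.0665) and without WT mouse 1 at 7 DPP (0.0752). In Tnfr2-/- Jak2 (1.09, adjusted p 2.24e-04) and Jak1 rose, and none fell, beside 10.4% and 9.93% of all genes. Of 8 feedback and inhibitor genes other than Socs3, none was called between the genotypes in any comparison. Of 5 genes of receptor shedding, the cleavage that frees soluble IL-6 receptor, Adam10 was higher in late Tnfr2-/- cultures (126.3 ± 9.38 against 96.5 ± 14.4, SD, n = 4 each, adjusted p 0.0276), which is 1 of 5 beside 3.80% of all genes called higher, and 0 of 5 were called after rescaling. Adam10 and Timp3, an inhibitor of shedding, rose late in both genotypes. That is 2 of 5, beside 11.6% of all genes that rose in WT and 10.4% in Tnfr2-/-. Adam10 in WT was lost without WT mouse 1 at 7 DPP (adjusted p 0.0730). Timp3 rose by 2.21 in WT (adjusted p 6.90e-04) and 2.37 in Tnfr2-/- (adjusted p 3.54e-04).

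Markers of other cells moved with some of these results. The 14 fibroblast markers all passed the filter, and their sum lay between 1512 and 5110 in late WT and between 4151 and 10250 in late Tnfr2-/- libraries. Early, it lay between 2474 and 5078 in WT and between 3504 and 5297 in Tnfr2-/- libraries. At the late days 2 of the 14, Dcn and Vim, were higher in Tnfr2-/- and none lower, beside 3.80% and 2.64% of all genes. In Tnfr2-/- cultures 5 of 14 rose late and none fell (3 rose with no filter and 7 with the mouse as a block), beside 10.4% and 9.93% of all genes. In WT cultures 2 rose late (Tagln and Thy1) and 1 fell (Dcn), beside 11.6% and 8.52% of all genes, and with the mouse as a block 3 rose and 5 fell. Without WT mouse 1 at 7 DPP 1 rose and 1 fell in WT, with no filter 0 rose and 1 fell, and after rescaling 1 rose and 2 fell. The part of these markers in the WT changes of Stat3 and Il6ra was not tested. At the early days Dcn alone was called, higher in Tnfr2-/- (1 of 14, beside 0.768% of all genes higher). Dcn, a matrix proteoglycan of fibroblasts, was 1945 ± 502.8 against 308.6 ± 125.4 at the late days (SD, n = 4 each, log2 difference 2.74, limma adjusted p 2.16e-05). The part of these markers in the differences of Il6, Il11, Lif, Osmr and Socs3 was not tested. At 5 DPP the marker sum was 1512 and 4183 in WT mice 1 and 2, and 4151 and 5965 in Tnfr2-/- mice 1 and 2. In Tnfr2-/- mouse 1 the sum was 3982 at 1 DPP and 4151 at 5 DPP. Over these days Il6 went from 2.65 to 43.1, Il11 from 115.3 to 453.8 and Lif from 49.2 to 141.0 in that mouse. In Tnfr2-/- mouse 2 the sum went from 4991 to 5965 over the same days, Il6 from 5.28 to 44.5, Il11 from 87.5 to 433.0 and Lif from 48.9 to 134.7. From 5 to 7 DPP the sum went from 4151 to 9276 in Tnfr2-/- mouse 1 and from 5965 to 10250 in Tnfr2-/- mouse 2. All 3 ligands went down and Osmr went up in both mice over that interval. These courses are given as values, and a link between them was not tested.

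Of 9 immune markers 3 passed the filter, Cd68, Csf1r and Kit. The immune sum lay between 10.3 and 29.0 in late WT and between 26.6 and 48.7 in late Tnfr2-/- libraries. At the early days it lay between 9.65 and 14.9 in WT and between 17.3 and 28.8 in Tnfr2-/- libraries, with no overlap. Cd68 was higher in Tnfr2-/- at the late days (32.2 ± 10.2 against 12.0 ± 4.01, SD, n = 4 each, limma adjusted p 0.00640) and at the early days (log2 difference 0.99, adjusted p 0.0283, and 0.0645 with an estimated correlation). Csf1r and Kit were not called between the genotypes, with late log2 differences of 0.53 and -0.95. Over all days Csf1r differed by 0.76 (adjusted p 0.0510), and it was called there without WT mouse 1 at 7 DPP (adjusted p 0.0352) and with transcripts of at least 500 bases alone (0.0386). The pan-leukocyte marker Ptprc stayed at or below 0.753, Adgre1 was listed at 0 in 19 of 20 libraries and Cpa3 in all 20. Of 4 endothelial markers 1 passed (Pecam1, mean 1.35), and of 5 markers of enteric glia and neurons 1 passed (Ret, mean 2.63). None of the 10 epithelial markers was called between the genotypes at the late or early days. Over all days Cdh1 and Epcam were called higher in Tnfr2-/- and none lower (2 of 10, beside 4.37% and 2.86% of all genes). With an estimated correlation Epcam was not called (adjusted p 0.0683) and Cdh1 fell just short of the threshold (adjusted p 0.05 when rounded). Epcam was called at the late days without WT mouse 1 at 7 DPP (0.70, adjusted p 0.00357). From early to late, 5 of the 10 rose in WT and none fell, beside 11.6% and 8.52% of all genes. In Tnfr2-/- 2 rose (Epcam and Cdh1) and 2 fell (Krt8 and Krt19), beside 10.4% and 9.93%. Without WT mouse 1 at 7 DPP Cdx1 and Cldn7 were lost in WT (limma adjusted p 0.101 and 0.168). With no filter Krt8 and Krt19 were lost in Tnfr2-/- (0.0631 and 0.180). The part of the immune markers in the differences of the members was not tested.

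**Figure D5:**
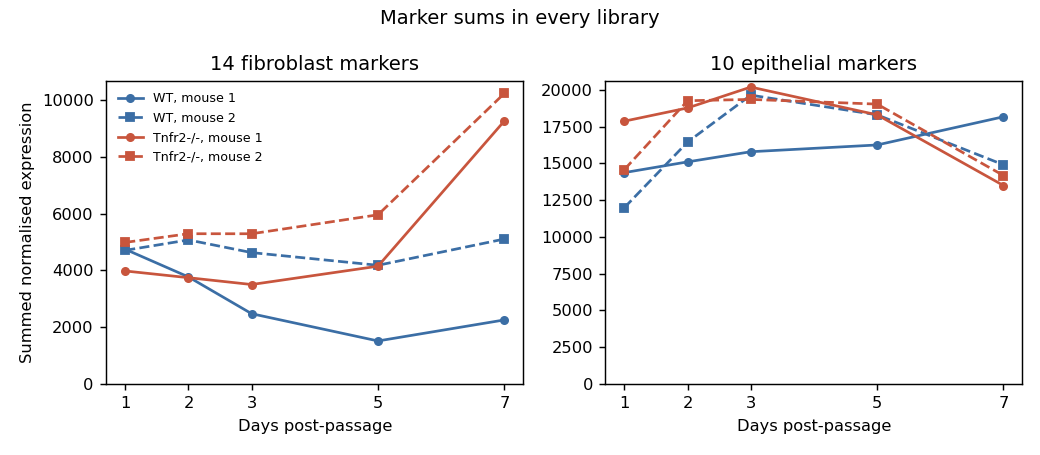
Summed normalised expression of 14 fibroblast markers and 10 epithelial markers (vertical axes) against days post-passage, with 1 line per mouse. The fibroblast sum reaches 9276 and 10250 in the 2 Tnfr2-/- mice at 7 DPP, and it falls to 1512 at 5 DPP in WT mouse 1.

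The genes most like each member were ranked by Pearson correlation of log2(value + 1) over the 20 libraries, which share mice and days, and are given as a description. For Il6 they were Krt23 (r = 0.931), Nppc (0.919), Ier3 (0.915), Tnfrsf9 (0.911) and Junb (0.897). For Il11 they were Stc1 (0.917), Galnt3 (0.909), Ptges (0.908), Il1rl1 (0.901) and Kcnj8 (0.875). Spp1 (0.888) and Ifit1bl1 (0.875) were closest to Lif, Fbn1 (0.933) and Col12a1 (0.926) to Osmr, and Sulf1 (0.922) and Pla1a (0.893) to Socs3. Ddx18 (0.902) and Extl2 (0.876) were closest to Il6ra, Ssbp2 (0.912) and Nynrin (0.896) to Il11ra1, and Jak3 (0.901) and Noxo1 (0.900) to Stat3. The nearest to Il6st (Arhgap26, 0.782, and Natd1, 0.767) and to Lifr (Smyd3, 0.854, and Ednra, 0.749) were less close. Among the members themselves, Il6 ran with Lif (r = 0.866), Socs3 (0.843) and Il11 (0.778), while Il6ra ran against Stat3 (-0.67).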

How the data were processed

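Colonoid libraries of WT and Tnfr2-/- mice were stranded, single-end mRNA libraries. Per the submitters' processing notes, the authors handled reads with CASAVA, quantified transcripts with kallisto (mm10) and compared them with sleuth. The deposited values are a signal per transcript, TPM divided by a size factor by the authors. Beside them the authors gave a mean natural log of estimated counts, deposited per transcript, and test results, which were not used. The table had 113974 lines. The 781 repeats were identical and were dropped, 199 transcripts without a gene (at most 0.0989% of a library) were left out, and values were summed per gene symbol. Pseudoalignment divides shared reads among similar transcripts, so short and overlapping transcripts are uncertain.

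Values were analysed as log2(value + 1) for 13539 genes with a mean of at least 1. In limma 3.58.1 (R 4.3.3, mean-variance trend) a mean was fitted for each of 10 groups over all 20 libraries (10 residual degrees of freedom), with Benjamini-Hochberg adjustment over all genes. An adjusted p under 0.05 is called. Replicate numbers were taken to identify mice, which no source used here states. Deviations from the group mean correlated between days of a mouse at a median r of 0.203 in WT and 0.039 in Tnfr2-/- (10 pairs of days each). Fits with the mouse as a block (within genotype), as a correlated block (between genotypes, consensus correlation 0.093) and on mouse means were alternatives, as were other pseudocounts, filters, scaling and leave-outs. Scripts were tested on simulated data. The values were neither plain TPM nor counts, so tests for normalised values were used. The members and lists were chosen with earlier results of these data known. Named list genes are up to 4 of lowest adjusted p in each direction per comparison among those called. Some list genes are not reported here. Coordinates are from GENCODE M21 (GRCm38) and promoters from RefSeq (GRCm38.p6).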

Additional observations from a re-analysis of the deposited data

Results flagged for a closer look

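In 40 groups examined, each gene in each genotype at the early or late days, 3 held a library farther from the others than Dixon's 95% limit, which chance alone passes in about 1 of 20 groups. Il6 was at 3.95 in WT mouse 1 at 7 DPP and was listed at 0 in the other 3 late WT libraries. Il11 was at 437.6 in the same library, and the nearest late WT value was 37.1. Lifr was at 11.7 in WT mouse 2 at 3 DPP, against 4.58 in the next highest of the 6 early WT libraries. The first 2 values come from 1 library. They belong to the genes by which the family was chosen and are given as a description, and with the other 3 values at 0 the Il6 library could not but stand apart.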

How the results depend on the processing

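No called difference of a tested member changed its direction under any of the 9 alternatives or 24 leave-outs run for each comparison. On mouse means the number of the 8 members called was 0 in all 5 comparisons, against 2 late over early in WT, 4 late over early in Tnfr2-/-, 2 for genotype over all days, 3 at the late days and 0 at the early days. Fewer samples enter that fit. The replicate block kept these counts at 2, 4, 2, 3 and 0 and changed no call. A minimum mean of 5 leaves out Lifr. Leaving out 1 library or 1 mouse gave 0 to 2 members in WT, 0 to 4 in Tnfr2-/-, 1 to 3 over all days, 1 to 4 at the late days and 0 to 1 at the early days. Without either Tnfr2-/- mouse, 0 of 8 were called late over early in Tnfr2-/-. The late genotype calls of Osmr and Socs3 were lost without WT mouse 1 (adjusted p 0.173 and 0.124), Tnfr2-/- mouse 1 (0.252 and 0.0837) or Tnfr2-/- mouse 2 (0.361 and 0.205), that of Socs3 over all days without WT mouse 1 (0.0973) or Tnfr2-/- mouse 2 (0.123), and Osmr over all days passed without WT mouse 2 (0.0161). In WT, Stat3 was lost without either WT mouse (0.408 and 0.0766), and Il6ra without WT mouse 1 (0.128) or a Tnfr2-/- mouse (0.0716 and 0.0721). Without 1 mouse a group has 1 library a day, assumed to vary like the rest. Lif kept its genotype calls in all leave-outs (adjusted p up to 0.0251 over all days and 0.0207 late). The late minus early genotype difference of Il6 was 4.73 with a pseudocount of 0.1 and 2.29 with a pseudocount of 5, against 3.38, and leave-outs gave 2.80 to 3.95. That of Il11 ranged from 2.71 (without WT mouse 2) to 5.00 (without WT mouse 1). Without the 7 DPP library of WT mouse 1 it was 4.74. Over all genes, the genotype count over all days was 979, with 445 under the correlated block and 7 on mouse means, which called 0 in WT, 0 in Tnfr2-/-, 0 late and 3 early, with 4066, 3997, 1859 and 1113 at an unadjusted p under 0.05. Transcripts of at least 500 bases, an alternative chosen after seeing the data, gave the same counts of 2, 4, 2, 3 and 0. Genes at a few units cannot be given a counting error here.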
